A study of Mus musculus with 60 samples.

Results

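The metallothioneins described here are Mt1, Mt2 and Mt3, the 3 rows of that name among 47643 gene symbols in a table of RNA abundance from mouse hippocampus. They were chosen by their measured log2(TPM + 0.5) over the 12 groups of injection and week, the inducible Mt1 and Mt2 against the neural Mt3, so their levels and differences below are descriptions and carry no test. The table also holds Mt4, another symbol of the family. All 3 members passed the filter on low values (a TPM, the abundance scaled to gene length and library total, of at least 1 in at least 4 libraries), as did 15608 genes in all. The 60 libraries came from the hippocampus of female mice, 2 months old per the labels, in 3 arms. CAC mice were injected with melanoma cells labelled cachectic, NCAC mice with melanoma cells labelled non-cachectic, and Con mice had a mock injection. Cachexia is a wasting syndrome of cancer. The CAC arm had 4, 5, 5 and 7 libraries at 2, 4, 6 and 8 wk after injection, the NCAC arm 5, 5, 4 and 5, and the Con arm 5 at every time. The sample labels give the strain as C57BL6/J, whereas the series' design text gives NCI Ath/nude, an athymic mouse that lacks mature T cells. The labels name no melanoma line, and the extract protocol names a different tumour model that matches none of the groups. The labels speak of biological replicates without tying each library to a mouse, and the spread behind each p-value is that between libraries.

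Metallothioneins are small, cysteine-rich proteins that bind zinc and copper and buffer both metals in the cell. Mt1 and Mt2 are the inducible forms: zinc acts on them through the metal-responsive factor MTF1, and glucocorticoids and inflammatory signals through IL6 and STAT3 raise them as well. In brain they are made mostly by astrocytes. Mt3, first described as growth inhibitory factor, is the form of neural tissue, is found in neurons and astrocytes, and responds little to metals. Mt4 belongs to stratified squamous epithelium.

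In the mm10 assembly the genes lie in a row on the plus strand of chromosome 8, with GENCODE M21 limits of chr8:94152607-94154146 for Mt3, chr8:94172664-94173568 for Mt2 and chr8:94179082-94180327 for Mt1. Mt4 lies upstream of them at chr8:94137197-94139031. The stretches of 250 bases before each RefSeq start site (build GRCm38.p6) were searched for the metal response element, the sequence bound by MTF1, and are shown. Capitals mark each match, on either strand, to its core TGCACNC or TGCGCNC. The windows are chr8:94178839-94179088 for Mt1, chr8:94172368-94172617 for Mt2 and chr8:94152357-94152606 for Mt3, all read on the plus strand.
Mt1: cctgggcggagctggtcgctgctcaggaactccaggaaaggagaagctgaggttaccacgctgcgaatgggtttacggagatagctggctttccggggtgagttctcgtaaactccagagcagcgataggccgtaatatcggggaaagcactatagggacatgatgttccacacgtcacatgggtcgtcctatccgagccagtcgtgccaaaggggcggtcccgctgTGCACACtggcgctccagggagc
Mt2: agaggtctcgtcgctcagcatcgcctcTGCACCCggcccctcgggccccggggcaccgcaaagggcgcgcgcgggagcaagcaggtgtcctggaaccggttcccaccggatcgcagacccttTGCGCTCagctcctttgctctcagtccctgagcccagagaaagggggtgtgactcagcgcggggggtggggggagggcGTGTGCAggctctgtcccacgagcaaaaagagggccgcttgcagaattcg
Mt3: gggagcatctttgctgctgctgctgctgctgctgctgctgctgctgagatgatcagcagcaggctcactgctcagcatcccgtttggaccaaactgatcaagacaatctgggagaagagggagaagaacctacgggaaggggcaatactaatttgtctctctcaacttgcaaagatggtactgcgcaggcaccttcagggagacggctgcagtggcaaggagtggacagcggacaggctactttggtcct
The Mt2 window held 3 matches, starting 223, 128 and 50 bases before the start site. The Mt1 window held 1, starting 23 bases before it, and the Mt3 window held 0. Of 32851 RefSeq promoters searched over the same 250 bases, 21.4% held at least 1 match and 1.26% at least 3, so a single match is common and 3 are not. None of the 3 windows held the glucocorticoid receptor core site TGTTCT (16.1% of promoters) or the STAT site TTCNNNGAA (7.02%), and the Mt2 window held 1 antioxidant element TGACNNNGC (10.2%). No match says only that these letters are not in the window. The GENCODE exons of Mt1 cover 1246 bases and those of Mt3 1066, against gene lengths of 540 and 538 implied by the authors' values. Their windows may thus lie before starts other than those mainly used. Bases after the windows were not searched, so the counts for Mt1 and Mt3 may miss elements there. The Mt4 window, not shown, held 1 match to the metal response core. The Mt3 window had 5 CpG dinucleotides, against 17 in that of Mt1 and 21 in that of Mt2. The doubt about the start sites of Mt1 and Mt3 holds for these counts too.

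Mt1, Mt2 and Mt3 ranked among the abundant transcripts of the tissue. Over the 60 libraries Mt1 had a median of 472 TPM (133 to 935), Mt2 314 (117 to 540.3) and Mt3 428 (96.5 to 1003), which placed each above 97.6% to 98.7% of the genes tested. TPM is scaled by gene length, but these genes are short and their values moved with a length-related trend between libraries, given below. Their ranks against longer genes are therefore approximate. Mt4 was listed at 0 in 57 libraries and rested on 4 reads in all. The deposited values of 99.9% of the genes above 0 were whole multiples of what 1 read is worth, within 0.02 of a read, which gave depths of 32.4 M to 42.0 M reads (M, mega) per library. Mt1 rested on 687 to 5374 reads per library, Mt2 on 618 to 3240 and Mt3 on 483 to 6172, so that counting error was at most 4.55% and the spread between libraries set the errors below. No run of 50 bases was shared with any other annotated transcript, and the longest identical run between members was 27 bases, so the members' reads can be told apart.

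All 3 genes varied widely inside groups. The standard deviation of log2(TPM + 0.5) within groups was 0.43 for Mt1, 0.41 for Mt2 and 0.59 for Mt3, against 0.15 for the median tested gene. Ordered by mean log2 level, CAC at 8 wk stood highest for Mt1 (712 ± 181 TPM, SD, n = 7) and Mt2 (428 ± 92.6). CAC at 2 wk stood lowest for Mt1 (208 ± 82.6 TPM, SD, n = 4), for Mt2 (165 ± 36.9) and for Mt3 (238 ± 128). Mt3 was highest in Con at 8 wk (945 ± 54.8 TPM, SD, n = 5). Of the 11 steps between neighbouring groups in that order, 1 for Mt1, 2 for Mt2 and 1 for Mt3 exceeded the pooled SD of the neighbours. For Mt1 that was the step down to CAC at 2 wk, for Mt3 the step from Con at 8 wk to NCAC at 8 wk, and for Mt2 the steps below NCAC at 8 wk and below NCAC at 2 wk. All other neighbours in the order did not differ beyond their spread.

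**Figure D1:**
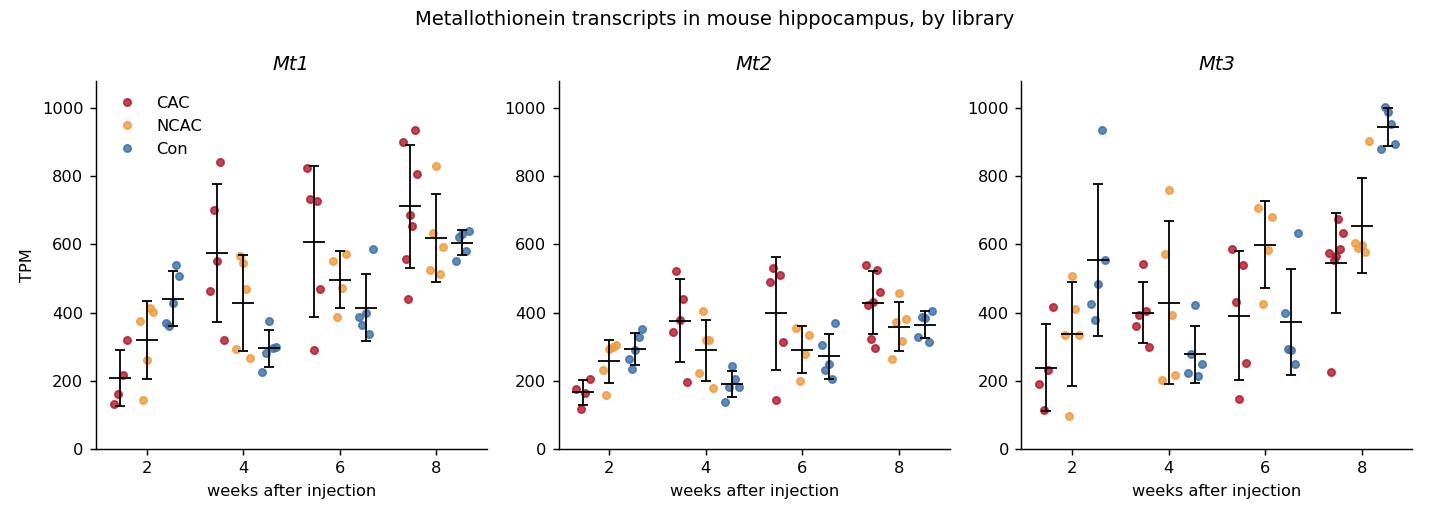
TPM of Mt1, Mt2 and Mt3 in each of the 60 libraries (points) by weeks after injection, with CAC, NCAC and Con side by side; black bars give mean ± SD. CAC at 2 wk is the lowest group in every panel, and the 5 Con libraries at 8 wk, at 882 to 1003 TPM of Mt3, lie above all 7 CAC libraries of that week.

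At 2 wk the 3 genes stood lower in CAC than in Con. Mt1 had 133, 162, 217 and 320.2 TPM in CAC libraries, against 369.8, 360.0, 428, 539 and 508 TPM in Con libraries. Every CAC value lay below every Con value, which held in this direction for 1.59% of the genes tested. The log2 difference was -1.14 ± 0.28 (SE), a fold of 0.453. Mt2 had 176, 117, 163 and 206 TPM in CAC libraries and 264, 234, 291, 328 and 351 TPM in Con libraries, again without overlap. Its difference was -0.84 ± 0.27. Mt3 had 189, 115, 232 and 416 TPM in CAC libraries and 424, 377, 485, 937 and 555 TPM in Con libraries. Here 3 of the 4 CAC values lay below all Con values, and the difference was -1.30 ± 0.38. Markers of neighbouring regions stood higher in some CAC libraries of this week: 2 of 6 thalamus markers rose (list median 0.74), and the summed level of 7 striatum markers was 106 to 1086 TPM in CAC, against 94.8 to 109 TPM in Con. Of 8 markers of the hippocampus itself, Spink8 fell to 38.4 ± 8.5 TPM in CAC, against 82.7 ± 5.3 TPM in Con (-1.12 ± 0.17, adjusted p 0.0006), and the other 7 did not pass, with a list median of -0.11. The 8 summed to 607 to 848 TPM in CAC and 792 to 878 TPM in Con. The part of these markers in the result was not tested. In this comparison 3.7% of all genes passed limma's adjusted threshold of 0.05, and 2 members, Mt1 and Mt3, were among them. That count follows from the choice of the members and is not read as a result. The median difference over all genes tested was 0.06, against -1.14 over the members.

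At 4 wk the order was turned round. Mt1 had 464, 701, 552, 841 and 319 TPM in CAC libraries, against 224, 281, 377, 297 and 299.5 TPM in Con libraries. Mt2 had 343, 522, 377, 441 and 196 TPM in CAC libraries and 138, 181, 244, 204 and 182 TPM in Con libraries. For each gene 4 of the 5 CAC libraries lay above all Con libraries, and replicate 5 fell inside their range. The differences were 0.90 ± 0.26 for Mt1 and 0.94 ± 0.25 for Mt2. Mt3 had 361, 392, 543, 403 and 300.2 TPM in CAC libraries and 223, 279, 422, 213 and 249 TPM in Con libraries, where the groups overlapped and the difference was 0.55 ± 0.36. Without the 17 libraries rich in genes of blood, striatum or choroid plexus, described further on, the differences were 0.51 for Mt1 and 0.53 for Mt2. These values rest on few libraries: CAC replicates 1, 2 and 4 and Con replicate 2 were set aside. Only CAC replicates 3 and 5 were left at this time. The summed level of 9 choroid plexus markers was 188 to 1669 TPM in CAC and 2563 to 5040 TPM in Con at this time, without overlap, with a list median of -2.28. None of the 9 passed the adjusted threshold and all 9 had an unadjusted p under 0.05 by limma. Their part in the result was not tested. The call threshold was passed by 0.801% of genes, and by none of the members.

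At 6 wk Mt1 and Mt2 were above the Con range in 3 of the 5 CAC libraries. Mt1 had 823, 733, 289, 727 and 469.7 TPM in CAC libraries and 386, 363, 399, 337 and 587 TPM in Con libraries. Mt2 had 491, 530.3, 143, 512 and 313 TPM in CAC libraries and 304, 231, 250.04, 205 and 371 TPM in Con libraries. CAC replicate 3 lay below all Con libraries for both genes. The differences were 0.49 ± 0.26 for Mt1 and 0.43 ± 0.25 for Mt2, below 2 times their SE. Mt3 had 588, 432, 146, 539 and 252 TPM in CAC libraries and 398, 292, 292, 250.4 and 634 TPM in Con libraries, a difference of -0.02 ± 0.36. CAC replicate 3 was the lowest library of its group for all 3 genes. Of all genes, 0.25% passed the threshold.

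At 8 wk Mt3 was lower in CAC without overlap with Con, while Mt1 and Mt2 overlapped between the groups. The 7 CAC libraries had 441 to 935 TPM of Mt1 (median 687), against 553, 623, 629.9, 579.8 and 639 TPM in Con libraries. Mt2 was at 297 to 540.3 TPM in CAC libraries (median 431) and at 328, 387, 384, 315 and 405 TPM in Con libraries. For each of these genes 5 of the 7 CAC libraries exceeded all Con libraries and 1 lay below all of them, and the differences of 0.19 ± 0.24 and 0.21 ± 0.23 were smaller than their SE. Mt3 was at 225 to 676 TPM in CAC libraries (median 576), against 882, 1003, 990.4, 954 and 895 TPM in Con libraries. All 7 CAC values lay below all 5 Con values, as they did for 2.29% of the genes tested, and the difference was -0.86 ± 0.33, a fold of 0.551. The threshold was passed by 14.5% of all genes and by 0 of the 3 members. Of the genes called, 77.9% were higher in CAC, a share that was 50.1% under median-of-ratios scaling and 64.4% with the GC and length trend removed.

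The balance of the inducible genes against Mt3 left CAC and Con without overlap at 8 wk, and CAC and NCAC without overlap at 6 wk. It is given as the mean log2 of Mt1 and Mt2 minus the log2 of Mt3, within each library, so that the total of the library cancels. At 8 wk it was 0.05 ± 0.58 in CAC (SD, n = 7), -0.48 ± 0.38 in NCAC (n = 5) and -1.01 ± 0.12 in Con (n = 5). The CAC libraries ranged from -0.62 to 1.10 and lay above all Con libraries, at -1.16 to -0.81. At 6 wk it was 0.38 ± 0.22 in CAC (n = 5), -0.65 ± 0.04 in NCAC (n = 4) and -0.10 ± 0.23 in Con (n = 5). All CAC libraries (0.11 to 0.60) lay above all NCAC libraries (-0.69 to -0.61), and the NCAC libraries lay below all Con libraries. The 5 red cell markers also set these arms apart at 6 wk, with summed levels of 310.1 to 795 TPM in CAC and 909 to 1946 TPM in NCAC, without overlap, and 426 to 1464 TPM in Con. Their part in the result was not tested. At 4 wk the values of 0.17 ± 0.43 in CAC, -0.16 ± 0.45 in NCAC and -0.20 ± 0.27 in Con overlapped. At 2 wk they were -0.26 ± 0.39 in CAC, -0.12 ± 0.55 in NCAC and -0.56 ± 0.33 in Con. The difference of CAC from Con was thus positive at each time, at 0.30 ± 0.25 (SE), 0.37 ± 0.23, 0.48 ± 0.14 and 1.06 ± 0.23 at 2, 4, 6 and 8 wk. That of NCAC from Con was 0.45 ± 0.29, 0.04 ± 0.23, -0.55 ± 0.11 and 0.54 ± 0.18 at the same times. Of the 5 NCAC libraries at 8 wk, 4 also lay above all Con libraries. CAC exceeded NCAC by 0.53 ± 0.28 in that week, with 3 of the 7 CAC libraries above all NCAC libraries. The log2 ratio of Mt1 to Mt2 varied less, with an SD within groups of 0.22 against 0.38 for the ratio to Mt3.

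**Figure D2:**
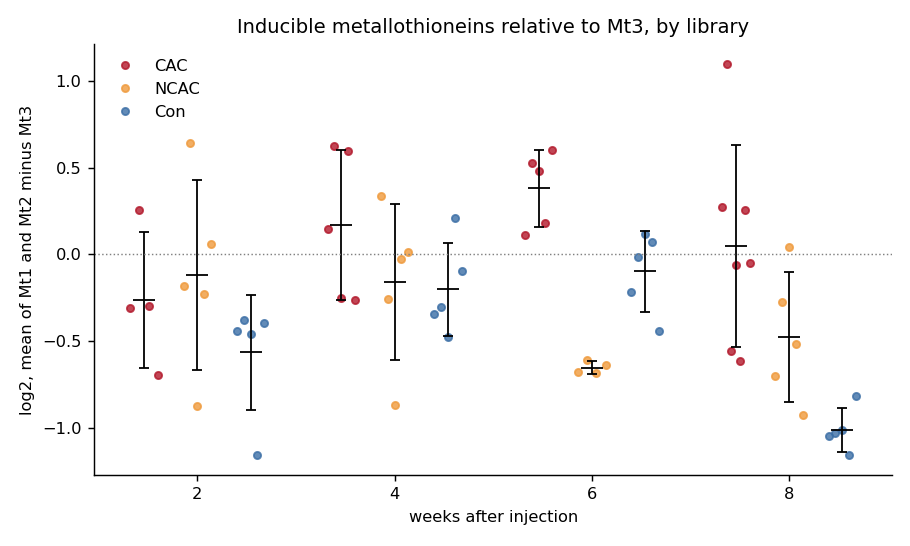
Mean log2 of Mt1 and Mt2 minus log2 of Mt3 in each of the 60 libraries (points) by weeks after injection, with mean ± SD in black; 0 marks equal levels. At 8 wk the 7 CAC libraries (-0.62 to 1.10) lie above the 5 Con libraries (-1.16 to -0.81), and at 6 wk the 5 CAC libraries lie above the 4 NCAC libraries. Of the 5 NCAC libraries at 8 wk, 4 also lie above all Con libraries.

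NCAC mice received melanoma cells without the cachectic label. Their mean log2 levels lay between those of CAC and Con at every time for Mt1, at 2, 4 and 6 wk for Mt2, and at 2, 4 and 8 wk for Mt3. At 2 wk Mt1 had 375, 144, 262, 415 and 401 TPM in NCAC libraries, Mt2 232, 157, 294, 299 and 305 TPM, and Mt3 334, 96.5, 509, 412 and 336 TPM. Replicate 2 was the lowest NCAC library for all 3. The differences of CAC from NCAC at 2 wk were -0.60 ± 0.28 for Mt1, -0.62 ± 0.27 for Mt2 and -0.47 ± 0.38 for Mt3, and those of NCAC from Con were -0.54 ± 0.26, -0.22 ± 0.25 and -0.83 ± 0.36 in the same order. With the GC and length trend removed, those of CAC from NCAC were -0.43, -0.47 and -0.27, and those of NCAC from Con -0.21, 0.11 and -0.44, where Mt2 changed sign. Between CAC and NCAC 0% of all genes passed the threshold at 2 wk, 0.0128% at 4 wk, 1.77% at 6 wk and 1.83% at 8 wk, and no member did. Of those genes 75.0% were higher in CAC at 6 wk (59.8% under median-of-ratios scaling, 61.0% with the trend removed) and 69.1% at 8 wk (61.2% and 56.9%). At 4 wk CAC differed from NCAC by 0.42 ± 0.26 for Mt1, 0.36 ± 0.25 for Mt2 and 0.06 ± 0.36 for Mt3. At 6 wk Mt3 had 707, 424, 585 and 680.2 TPM in NCAC libraries and was lower in CAC, with a difference of -0.76 ± 0.38. Mt1 and Mt2 differed there by 0.21 ± 0.28 and 0.33 ± 0.27, which turned to -0.07 and -0.08 without the libraries rich in blood, striatum or choroid plexus genes and were 0.48 and 0.59 with the GC and length trend removed. The difference of Mt3 was -1.08 without those libraries and -0.43 with the trend removed. At 6 wk the libraries left out were NCAC replicates 2 and 3 and CAC replicate 2. Only NCAC replicates 1 and 4 were left in that arm. At 8 wk the differences of CAC from NCAC were 0.18 ± 0.24 for Mt1, 0.25 ± 0.23 for Mt2 and -0.31 ± 0.33 for Mt3. Mt3 had 605, 589, 599, 576 and 903 TPM in the NCAC libraries of that week, where 4 of the 5 lay below all Con libraries. Between NCAC and Con the differences of Mt3 were 0.49 ± 0.36 at 4 wk, 0.74 ± 0.38 at 6 wk and -0.55 ± 0.36 at 8 wk. Those of Mt1 were 0.48 ± 0.26, 0.27 ± 0.28 and 0.01 ± 0.26, and those of Mt2 0.57 ± 0.25, 0.10 ± 0.27 and -0.04 ± 0.25; with the trend removed those at 4 wk were 0.19 for Mt1, 0.29 for Mt2 and 0.17 for Mt3. At 6 and 8 wk the sign for Mt1 and Mt2 depended on the scaling, the trend removal or single libraries. Of all genes tested, 0% passed the threshold between NCAC and Con at any time by limma, and no member did, with 587 to 1538 genes at an unadjusted p under 0.05. Comparisons within a week share their libraries and are not independent of each other.

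Read over time, each arm had more of all 3 transcripts at 8 wk than at 2 wk. In CAC the differences of 8 wk from 2 wk were 1.81 ± 0.26 for Mt1, 1.37 ± 0.25 for Mt2 and 1.28 ± 0.35 for Mt3. In NCAC they were 1.03 ± 0.26, 0.49 ± 0.25 and 1.12 ± 0.36, and in Con 0.47 ± 0.26, 0.32 ± 0.25 and 0.84 ± 0.36. All 7 CAC libraries at 8 wk exceeded all 4 at 2 wk for Mt1 and for Mt2, as they did for 2.68% of all genes. The NCAC libraries did not overlap for Mt1 and Mt3 (2.9% of all genes), nor the Con libraries for Mt1 (2.42%). Con did not climb steadily: its means of Mt1 were 441, 296, 414 and 605 TPM at 2, 4, 6 and 8 wk, so that Con at 4 wk was the lowest of its arm. The CAC means of Mt1 were 208, 575, 609 and 712 TPM at the same times. The change of side between 2 and 4 wk thus went with a higher CAC mean and a lower Con mean at 4 wk, and the difference between the weeks was not tested. With the GC and length trend removed, as described below, the differences of 8 wk from 2 wk were 1.29, 0.88 and 0.61 in CAC for Mt1, Mt2 and Mt3. They were 0.55, 0.04 and 0.51 in NCAC, and 0.04, -0.09 and 0.30 in Con, where that of Mt2 changed sign.

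Inside groups, libraries high in 1 metallothionein were high in the others. The deviations of the 60 libraries from their group means correlated at a Pearson r of 0.861 between Mt1 and Mt2 (Spearman rho 0.868), 0.763 between Mt1 and Mt3 (rho 0.743) and 0.706 between Mt2 and Mt3 (rho 0.711). The members were chosen on these log2 values, so the correlations are descriptions and carry no p. Without the 2 libraries farthest from the median, r was 0.835, 0.685 and 0.678 in the same order. Within the arms, r between Mt1 and Mt2 was 0.850 in CAC (n = 21), 0.869 in NCAC (n = 19) and 0.920 in Con (n = 20). The points share their library, its depth and its length slope, given next.

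**Figure D3:**
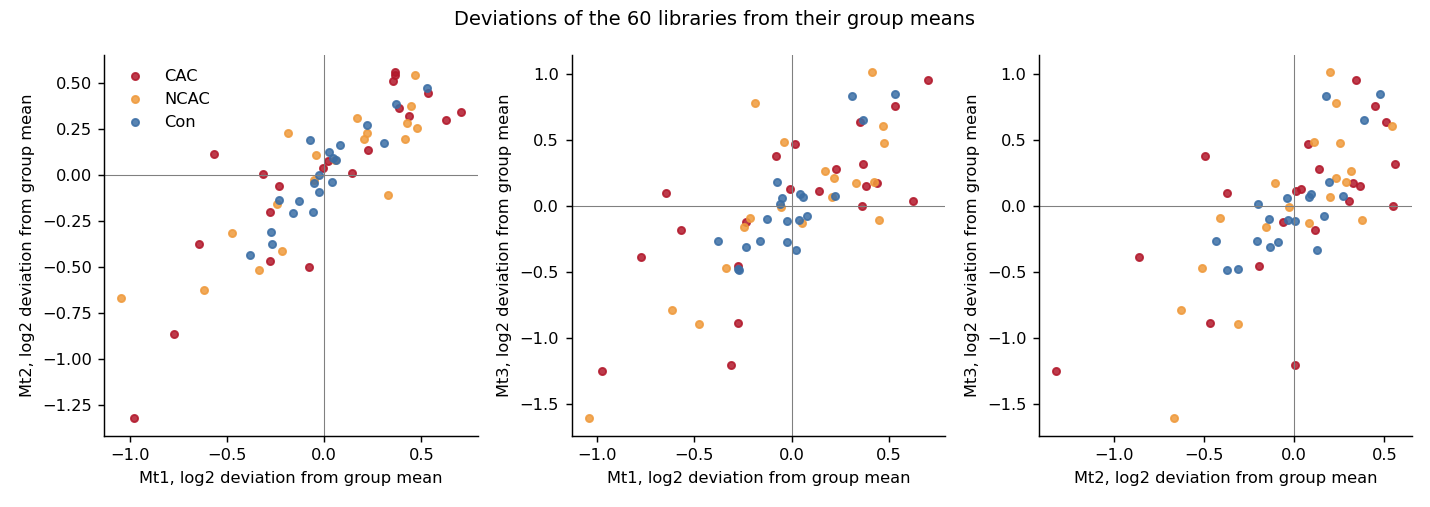
Log2 deviation of each of the 60 libraries from its group mean, for Mt2 against Mt1, Mt3 against Mt1 and Mt3 against Mt2; colours give the arm. All 3 panels rise, with r of 0.861, 0.763 and 0.706.

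The 3 genes are among the shortest tested, and their values moved with a length-related trend between libraries. The gene lengths implied by the authors' values were 540 bases for Mt1, 556 for Mt2 and 538 for Mt3, at or below the 1.21 percentile of the tested genes, and the GC contents of 54.6%, 53.8% and 58.4% lay at the 73.8, 69.7 and 91.8 percentiles. For each library a length slope was fitted together with a GC slope over 15035 genes: the change of log2 level, relative to the gene's mean over the 60 libraries, per doubling of gene length. A negative slope means that short genes read higher in that library. The slope averaged 0.088 in CAC, 0.046 in NCAC and -0.025 in Con at 2 wk, and -0.024 in CAC, -0.057 in NCAC and -0.098 in Con at 8 wk. Con at 8 wk, the group highest in Mt3, spanned -0.103 to -0.089. Within groups the length slope correlated with Mt3 at r = -0.909 (rho -0.853), with Mt1 at -0.678 (rho -0.623) and with Mt2 at -0.657 (rho -0.581). These relations were chosen after the data were seen and carry no p, and the 3 with the GC slope had r of 0.540 for Mt1, 0.308 for Mt2 and 0.624 for Mt3. Without the 2 farthest libraries the r with the length slope was -0.886 for Mt3, -0.580 for Mt1 and -0.556 for Mt2.

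**Figure D4:**
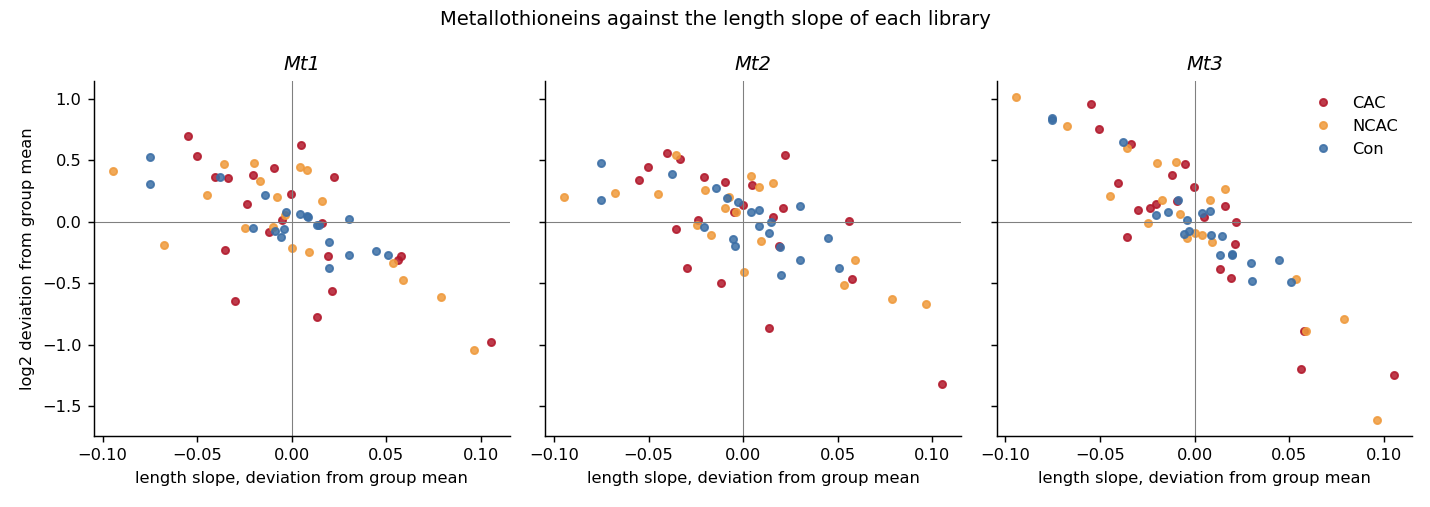
Log2 deviation of Mt1, Mt2 and Mt3 from the group mean against the deviation of the library's length slope (log2 per doubling of gene length), 60 libraries, colours by arm. The points of Mt3 follow a falling line (r = -0.909), those of Mt1 and Mt2 a looser one (-0.678 and -0.657).

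With a smooth trend on GC content and length removed from every library, the means of Mt1 and Mt2 were higher in CAC than in Con at 4, 6 and 8 wk by similar amounts. CAC and Con libraries still overlapped at each of these times. Mt1 at 8 wk spanned 8.66 to 9.72 (log2) in CAC and 8.57 to 8.81 in Con. NCAC differed from Con at 8 wk by 0.29 ± 0.18 for Mt1 and 0.23 ± 0.19 for Mt2. The difference of CAC from Con at 8 wk became 0.60 ± 0.16 for Mt1 and 0.60 ± 0.17 for Mt2, against 0.19 and 0.21 in the values as deposited, and -0.40 ± 0.19 for Mt3, against -0.86. At 6 wk it was 0.47 ± 0.18 for Mt1 and 0.41 ± 0.19 for Mt2, close to the deposited values. At 4 wk it was 0.57 ± 0.18 for Mt1, 0.62 ± 0.19 for Mt2 and 0.20 ± 0.20 for Mt3. At 2 wk the lower levels in CAC shrank to -0.64 ± 0.19 for Mt1, -0.36 ± 0.20 for Mt2 and -0.71 ± 0.22 for Mt3. The SD within groups was then 0.29 for Mt1, 0.30 for Mt2 and 0.33 for Mt3. The correlation within groups was then 0.734 between Mt1 and Mt2, 0.315 between Mt1 and Mt3 and 0.300 between Mt2 and Mt3. The balance of Mt1 and Mt2 against Mt3 hardly moved, with differences of CAC from Con of 0.21, 0.40, 0.45 and 1.00 at 2, 4, 6 and 8 wk. What sets the trend in these libraries was not tested.

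**Figure D5:**
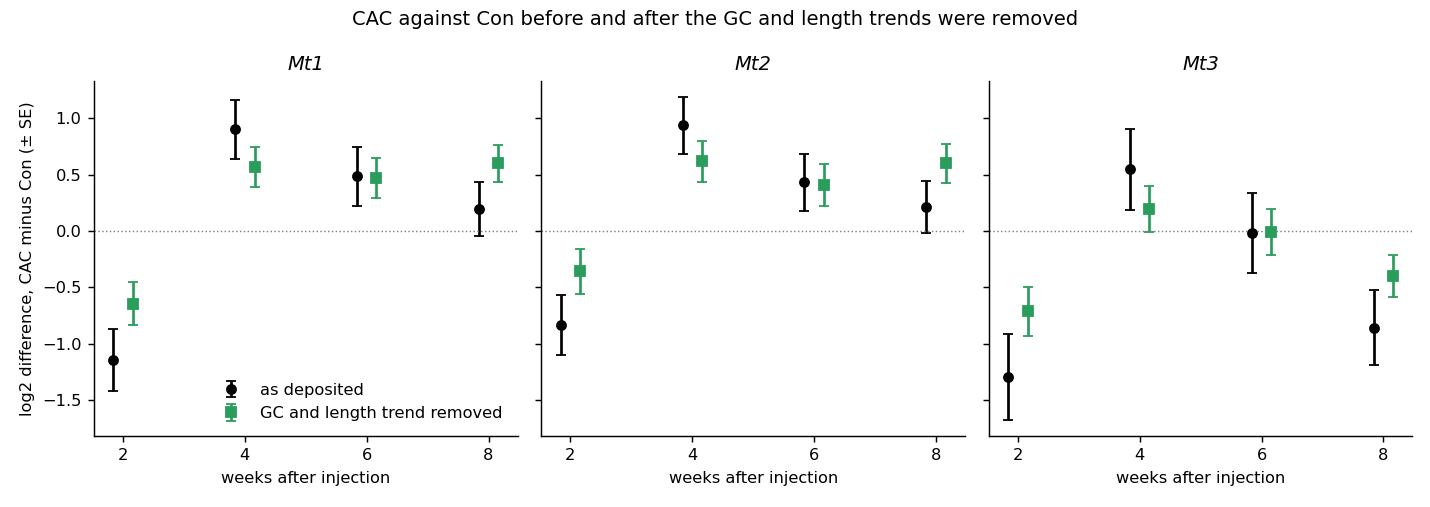
Log2 difference of CAC from Con (± SE from limma) for Mt1, Mt2 and Mt3 by weeks after injection, for the values as deposited (black circles) and with the GC and length trend removed (green squares). At 8 wk the values of Mt1 and Mt2 are 0.19 and 0.21 as deposited and 0.60 each with the trend removed.

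The genes whose levels ran most like the members' over the 60 libraries differed between the inducible forms and Mt3. Among 13466 named genes, the 8 most like Mt3 were Rpl38, Ndufa3, Atp5k, Rpl37, Tomm7, Rps29, Usmg5 and Rps28, at r of 0.976 to 0.988. Rpl38, Rpl37, Rps29 and Rps28 are ribosomal proteins, Ndufa3 is a subunit of respiratory complex I, Atp5k and Usmg5 belong to ATP synthase, and Tomm7 to the mitochondrial import pore. Their counted lengths were 341 to 1464 bases (median 780), against 3736.5 for the median tested gene. Within groups Mt3 and Rpl38 still ran together at r = 0.987. The 3 genes least like Mt3 were Ncoa4, the receptor that hands ferritin to autophagy, Usp32, a deubiquitinase, and Dnm1l, the mitochondrial fission GTPase, at -0.885 to -0.879, with lengths of 4107 to 7680 bases. The 8 most like the mean of Mt1 and Mt2 were Drap1, Rhob, Ddit4, Rps13, Spaca6, Ndufb9, Ndufb4 and Zfos1, at lower r of 0.849 to 0.878. Ddit4, a stress- and glucocorticoid-induced brake on mTORC1, had r of 0.873 over all libraries and 0.775 within groups, and Rhob, a small GTPase, 0.873 and 0.749. Their lengths were 651 to 2929 bases (median 1830). Least like them were Mgea5 and Ogt, the enzymes that remove and attach O-GlcNAc, and Oxct1 of ketone body use, at -0.843 to -0.827.

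Of the genes of the zinc transporter families, none passed between CAC and Con at 2, 4 or 6 wk, and 2 did at 8 wk. The zinc exporters (Slc30 family) had 8 of 10 listed genes tested. At 2, 4 and 6 wk 0 of the 8 passed between CAC and Con, with a smallest adjusted p of 0.051 for Slc30a4 at 2 wk (0.25 ± 0.08). At 8 wk, where 11.3% of all genes were called higher and 3.2% lower, Slc30a4 rose to 48.5 ± 5.3 TPM in CAC (SD, n = 7), against 39.1 ± 0.47 TPM in Con (n = 5). Its difference was 0.30 ± 0.07 and limma's adjusted p 0.0035. Slc30a10, a manganese exporter listed here by its family, fell to 10.4 ± 1.4 TPM in CAC, against 13.4 ± 1.2 TPM in Con (-0.37 ± 0.08, adjusted p 0.0045), and fell against NCAC too (-0.32 ± 0.08, adjusted p 0.028). Slc30a1, the plasma membrane exporter that MTF1 induces along with the metallothioneins, had 26.7 TPM in CAC and 24.8 TPM in Con at 8 wk and did not pass. Of the zinc importers (Slc39 family), 13 of 14 were tested and 0 passed between CAC and Con at any time. Against NCAC at 8 wk, where 1.83% of genes were called, Slc39a14, an importer induced in inflammation, rose by 0.25 ± 0.06 (adjusted p 0.019), to 15.58 ± 0.79 TPM in CAC, against 12.98 ± 0.59 TPM in NCAC. The calls of Slc30a10 and Slc39a14 against NCAC were, with Steap3, the 3 zinc and copper calls there, of which 0 remained with a replicate block, 0 without NCAC replicate 2 or 5, and 1 without NCAC replicate 1 or 4 or CAC replicate 1, 6 or 7.

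Of the 6 listed genes of the MTF1 axis, Gclc alone passed between CAC and Con, at 8 wk, a share near the 11.3% of all genes called higher there. It encodes the catalytic subunit of the enzyme that starts glutathione synthesis and rose to 70.6 ± 4.8 TPM in CAC, against 58.7 ± 2.0 TPM in Con (0.26 ± 0.06, adjusted p 0.0061). Mtf1 itself had 14.7 TPM in CAC and 14.1 TPM in Con and did not pass. Of 14 copper genes, 2 passed at 2 wk, 1 at 4 wk and 1 at 8 wk, against 3.7% of all genes at 2 wk, 0.801% at 4 wk and 14.5% at 8 wk. Cox17 and Commd1 fell at 2 wk (-0.51 ± 0.14, adjusted p 0.035, and -0.27 ± 0.07, adjusted p 0.032), Ccs, the copper chaperone of superoxide dismutase, rose at 4 wk (0.31 ± 0.07, adjusted p 0.035), and Steap3, a metalloreductase, fell at 8 wk (-0.51 ± 0.17, adjusted p 0.037). With the trend removed Cox17 at 2 wk was -0.62 (adjusted p 0.054) and Ccs at 4 wk 0.17 (adjusted p 0.20), neither past the threshold, while Ccs at 2 wk, 0.20 as deposited (adjusted p 0.11), was 0.44 and passed (adjusted p 0.0054). The calls at 2 wk rested on single libraries: of 577 genes called in all, 2 were left without Con replicate 4, 4 without CAC replicate 1, 33 without CAC replicate 2 or Con replicate 5, and 6 without the 17 rich libraries. At 4 wk the 125 genes called became 0 without CAC replicate 4. Of 14 NRF2 targets, 4 rose at 8 wk: Srxn1, Gclc, Gclm and Gsr, by 0.19 to 0.26, against 11.3% of all genes. The list median was 0.04, against 0.05 for all genes tested.

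Signals known to raise Mt1 and Mt2 were followed through lists of other genes, called targets below, which include none of the members. The IL6 and STAT3 list also holds the receptor genes Il6ra and Il6st. These lists were chosen with earlier results of these data known. Their counts, medians and p-values therefore describe the listed genes and are no independent test of the signals. At 8 wk, where 11.3% of all genes were called higher, 13 of 18 glucocorticoid targets rose between CAC and Con and 0 fell. The list median was 0.74, against 0.05 for all genes tested. Sgk1, a kinase of ion transport, reached 94.7 ± 14.8 TPM in CAC, against 41.7 ± 3.9 TPM in Con (1.16 ± 0.21, adjusted p 0.0010). Cdkn1a, the cell cycle inhibitor p21, reached 24.7 ± 13.1 TPM in CAC, against 6.5 ± 0.41 TPM in Con (1.65 ± 0.31, adjusted p 0.0011), and Pdk4, which restrains pyruvate oxidation, 31.1 ± 8.7 TPM in CAC, against 14.7 ± 0.58 TPM in Con (1.00 ± 0.19, adjusted p 0.0014). Fkbp5, a feedback regulator of the glucocorticoid receptor, stood at 57.1 ± 12.9 TPM in CAC and 30.7 ± 4.1 TPM in Con (0.86 ± 0.18, adjusted p 0.0027). Sult1a1 and Map3k6 also rose, by 1.79 ± 0.34 and 1.90 ± 0.38. Against NCAC at 8 wk, where 1.26% of all genes were called higher, 7 of the 18 rose. Of 14 IL6 and STAT3 targets, 8 rose against Con at 8 wk (11.3% of all genes) and 7 against NCAC (1.26%). None fell, and the list median was 0.35 against Con. Osmr, the oncostatin M receptor, reached 3.57 ± 0.93 TPM in CAC, against 1.40 ± 0.31 TPM in NCAC and 1.70 ± 0.40 TPM in Con. Lcn2, an iron-sequestering acute phase protein, Lrg1, a secreted glycoprotein of the acute phase, and Socs3, the feedback inhibitor of STAT3, rose by 1.83 ± 0.32, 1.63 ± 0.32 and 0.87 ± 0.19 against Con. The counts at 8 wk stood with the GC and length trend removed, at 12 of 18 and 8 of 14. Without CAC replicate 2 the joint count of both lists against NCAC, 14 with all libraries, was 9.

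The same lists had few calls at the early times. At 2 wk, when Mt1, Mt2 and Mt3 were lower in CAC, 0 of 18 glucocorticoid and 0 of 14 IL6 and STAT3 targets passed between CAC and Con, with list medians of 0.11 and -0.09. Ddit4 and Pdk4 had the smallest p of the glucocorticoid list, at -0.62 ± 0.25 (adjusted p 0.14) and 0.26 ± 0.22 (adjusted p 0.50), and Junb and Cebpd of the other, at -1.19 ± 0.39 (adjusted p 0.065) and -0.88 ± 0.30 (adjusted p 0.077). At 4 wk, when Mt1 and Mt2 were higher by 0.90 and 0.94, 0 of 18 and 1 of 14 passed. That gene was Bcl3, a partner of NF-kappaB, at 0.81 ± 0.50 TPM in CAC, against 0.20 ± 0.19 TPM in Con (adjusted p 0.045). Mean log2 levels of the glucocorticoid list at 4 wk were 4.89 ± 0.66 in CAC and 4.64 ± 0.53 in Con (SD, n = 5 each). Those of the IL6 and STAT3 list were 2.51 ± 0.45 and 2.12 ± 0.13. With such spread in CAC, a missing call does not show an unchanged level. At 6 wk 3 of 18 (Pdk4, Sgk1 and Cdkn1a) and 5 of 14 (Osmr, Lrg1, Bcl3, Socs3 and Il6ra) rose against Con, where 0.179% of all genes were called higher, and 3 and 4 against NCAC, where 1.33% were. The joint count of 8 against Con at 6 wk was 1 without CAC replicate 1 or 2, 2 without Con replicate 3, 4 without CAC replicate 5 or Con replicate 2 or 4, and 5 without CAC replicate 4 or Con replicate 5. The joint count of 7 against NCAC was 2 without NCAC replicate 4, 3 without CAC replicate 2 and 4 without NCAC replicate 3.

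In bulk tissue, fewer cells of a type and less RNA per cell cannot be told apart. Astrocytes, the main source of Mt1 and Mt2 in brain, were followed by 12 markers, all above 0. Their summed level was 4397 to 4837 TPM in CAC and 3889 to 4500 TPM in Con at 2 wk, and 4014 to 5004 TPM in CAC and 3818 to 4156 TPM in Con at 8 wk. At 2 wk 0 of the 12 passed between CAC and Con, and the list median was 0.11. At 8 wk, where 11.3% of all genes were called higher and 3.2% lower, 4 rose, Aldoc, Fgfr3, Glul and Gjb6, by 0.36 to 0.47, and Aqp4, the water channel of astrocyte endfeet, fell to 67.8 ± 22.1 TPM in CAC, against 98.3 ± 7.1 TPM in Con (-0.59 ± 0.15, adjusted p 0.0067), with a list median of 0.06. Among 10 neuron markers, of which 2 rose and 1 fell at 8 wk, Nrgn, a postsynaptic calmodulin-binding protein, fell at 2 wk (-1.08 ± 0.25, adjusted p 0.024) and at 8 wk (-0.63 ± 0.22, adjusted p 0.047). Nrgn does not stand for the list. The mean log2 level of the 10 was 8.51 ± 0.10 in CAC and 8.55 ± 0.04 in Con at 2 wk (SD). At 8 wk it was 8.60 ± 0.04 in CAC and 8.61 ± 0.02 in Con. Neighbouring tissue varied between libraries far more than the members did. The summed level of 9 choroid plexus markers ran from 47.5 to 10910 TPM, that of 5 red cell markers from 45.2 to 7921 TPM and that of 7 striatum markers from 77.8 to 1350 TPM. In all, 17 libraries stood more than 1 log2 unit above the median library in at least 1 of these lists. Of choroid plexus, red cell and striatum markers 0 passed between CAC and Con at any time. The part of these tissues in the members' values was not tested beyond the values given without the 17 libraries.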

How the data were processed

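RNA was extracted with Trizol, and stranded mRNA libraries came from a TruSeq kit, per the labels' protocols. The authors deposited 1 table of TPM per gene symbol and library, on mm10 per the submitters' processing notes. Aligner, counter and strand setting: not given in the sources used here. Each TPM is scaled to the library's total and keeps any length- or GC-related difference between libraries.

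The members and lists were chosen with earlier results of these data known. Differences and SE were taken from limma 3.58.1 (R 4.3.3). Its fit used 12 group means over 60 libraries, a pseudocount of 0.5 before log2, and a variance trend on intensity. The filter of 1 TPM in 4 libraries left 15608 genes, adjusted by Benjamini-Hochberg at 0.05. Fits were tested on simulated data. Fold changes on this scale understate those of low genes. GC and length trends were removed by natural splines (5 degrees of freedom for each property) over 15035 genes. Alternatives were pseudocounts of 0.1 and 1, median-of-ratios scaling, no filter, a filter at 5 TPM, only the groups compared, a replicate block, the trend removal, the 17 rich libraries left out, and each library left out. Named genes were the members, Mt4, list genes that passed (up to 6 by smallest p, otherwise the 2 with the smallest p), and the 8 most and 3 least alike genes. Selenow was matched as Sepw1. Promoters are RefSeq's, build GRCm38.p6, with 3 of 3 members matched.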

Additional observations from a re-analysis of the deposited data

Results flagged for a closer look

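In 4 of 48 checks of a group for a library far from the others, a library stood apart by Dixon's criterion, which chance reaches in about 1 of 20 groups. Con replicate 5 at 6 wk had 587 TPM of Mt1, with the other 4 at 337 to 399 TPM. CAC replicate 2 at 8 wk had 225 TPM of Mt3, with the other 6 at 555 to 676 TPM. NCAC replicate 5 at 8 wk had 903 TPM of Mt3, with the other 4 at 576 to 605 TPM. Con replicate 4 at 2 wk had a balance of Mt1 and Mt2 against Mt3 of -1.16 (log2), through 937 TPM of Mt3.

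In several cases every library of an arm stood on 1 side of the mean of the arm it is set against at 1 time, and every library on the other side at another time. For CAC minus Con, the difference at 4 wk minus that at 2 wk was 2.04 (log2) for Mt1, 1.78 for Mt2 and 1.84 for Mt3. For Mt3, CAC minus Con at 8 wk minus that at 4 wk was -1.41. For Mt3 in NCAC minus Con, the difference at 6 wk minus that at 2 wk was 1.57, and that at 8 wk minus that at 6 wk was -1.29. These differences between times were not tested.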

How the results depend on the processing

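Depth was no limit for the members; the spread between libraries was. The SD used here is that of log2 values pooled over the groups compared, not the SD within all 12 groups given above. Of the members' recomputed differences, 315 moved by less than 1 SD and 9 by more, and all 360 with single libraries left out moved by less. The 9, all with the GC and length trend removed, were for CAC against Con -0.64 (Mt1) and -0.36 (Mt2) at 2 wk and 0.60 (Mt1), 0.60 (Mt2) and -0.40 (Mt3) at 8 wk, and for NCAC against Con -0.016 (Mt1) at 6 wk and 0.29 (Mt1), 0.23 (Mt2) and -0.23 (Mt3) at 8 wk. Small differences changed sign: that of Mt2 for NCAC against Con was 0.11 at 2 wk and -0.18 at 6 wk with the trend removed. The replicate block moved no member by over 1 SD. The 3 correlations within groups kept their sign in all settings run.

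Genes called varied more. CAC against Con at 8 wk called 2256 genes, with 1441 under median-of-ratios scaling, 988 with the replicate block, 1439 with the trend removed, 1034 (without CAC replicate 2) to 3070 with a library left out. At 6 wk it called 39, and 113 with the trend removed, 134 without the rich libraries, 9 (without CAC replicate 1) to 85. CAC against NCAC at 8 wk called 285 genes, and 83 from only the groups compared, 51 with the block, 455 with the trend removed, 1919 without the rich libraries, 72 (without NCAC replicate 5) to 714. At 6 wk it called 276, and 174 without a filter, 96 from only the groups compared, 421 with the trend removed, 43 (without NCAC replicate 3) to 367. At 2 wk, CAC against Con called 577 genes, 2 without Con replicate 4, 280 with the block and 0 from only the groups compared.

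Of zinc, MTF1 and copper genes, CAC against Con called 4 at 8 wk, 7 without the rich libraries, and 3 to 6 with a library left out. At 6 wk it called 0, 1 with the trend removed, 1 without the rich libraries, and 0 to 1. Against NCAC at 8 wk 3 were called, 0 from only the groups compared, 0 with the block, 7 without the rich libraries, and 0 to 3. For glucocorticoid and IL6/STAT3 genes, CAC against Con called 8 at 6 wk, 5 with the filter at 5 TPM, and 1 to 9 with a library left out; against NCAC 7 at 6 wk, with 2 to 8, and 14 at 8 wk, with 7 from only the groups compared, 8 with the block, and 9 to 18. The causes were not tested.

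Replicate numbers are shared across groups without a stated pairing: of 56 same-numbered pairs, 11 correlated above 0.1, and 8 of 56 libraries correlated best with their own number.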
